A study of Mus musculus with 6 samples.

Results

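The genes that encode the proteins of the mitochondrial ribosome were described in mouse mammary carcinoma cells kept in medium conditioned with neutrophil extracellular traps (NETs). The members were the gene symbols of the deposited count table that begin with Mrpl or Mrps followed by a digit, without pseudogene names. The rule used names alone and found 78 of the 55809 symbols in the table, and 77 of them passed the low-count filter and were tested. The rule left out 6 pseudogenes, which together held 69 to 166 counts per library. By the usual subunit assignments 51 members belong to the large subunit and 26 to the small subunit. Mrps18a and Mrps30 sit in the large subunit in spite of their symbols, and Mrps36, now regarded as a component of the oxoglutarate dehydrogenase complex, was placed in neither.

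The mitochondrial ribosome stands in the mitochondrial matrix and translates the messenger RNAs of mitochondrial DNA, which encode membrane subunits of the respiratory chain and of ATP synthase. Its ribosomal RNAs come from mitochondrial DNA, whereas its proteins are encoded in the nucleus, made in the cytosol and imported. Part of these proteins descend from those of bacterial ribosomes and part are found in mitochondria alone. In mammals the genes for such nuclear-encoded mitochondrial proteins are known for short, CG-rich promoters with sites for NRF1, for the ETS factor GABP and for YY1.

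The NETs group was 410.4 cells held for 2 days in DMEM with 0.5% serum in which NETs had been isolated. The control group was the same line held for 2 days in DMEM with 0.5% serum. Messenger RNA was sequenced in 3 NETs and 3 control libraries, with 31119105 to 52890140 counts in NETs libraries and 43923391 to 64431811 in control libraries. Both groups are of 1 cell line in low serum, and the low serum was shared. The labels do not say whether replicates came from separate cultures, so p-values cover the spread among these libraries, and that may be technical. A NET preparation differs from plain medium in more than its NETs, and these cannot be told apart here. Levels are relative to all RNA of a library, so less RNA per cell and fewer cells with the RNA cannot be told apart either.

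The cells carried RNA of the epithelial markers Epcam, Krt8, Krt18, Cdh1, Cldn4 and Cldn7, which summed to 3779 to 3986 CPM (counts scaled to a common library size by TMM) in NETs libraries and 3520 to 3766 in control libraries. Within this sum the markers went opposite ways: Cldn4 had 777, 802 and 789 CPM in NETs libraries and 333, 433 and 368 CPM in control libraries (log2 fold change 1.06, edgeR adjusted p = 1.15e-07), Krt8 also rose, Krt18, Cdh1 and Cldn7 fell, and Epcam did not pass. Of 12 neutrophil markers 5 had no count in any library, among them Elane, Camp and Ngp. The 12 markers together summed to 2.98 to 3.37 CPM in NETs libraries and 1.83 to 2.12 CPM in control libraries. Most of it came from S100a8, which rose (log2 fold change 0.94, edgeR adjusted p = 0.00136). Cxcr2 was also higher but did not pass (1.08, edgeR adjusted p = 0.0575). Ly6g and Ptprc went the other way, with 0 counts in each NETs library. In control libraries Ly6g had 8, 6 and 6 counts and Ptprc 6, 2 and 8. S100a9, Mpo and Lyz2 overlapped between the groups at 0 to 12 counts. The part of these markers in the results below was not tested.

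Across the group, transcript levels in NETs and control cells lay close together. Of 77 tested members 4 rose and 11 fell, and 62 did not pass the quasi-likelihood test of edgeR at an adjusted p of 0.05, adjusted after Benjamini and Hochberg over all tested genes. The 15 called members were 19.5% of those tested, whereas 38.9% of all 13956 tested genes were called, 20.2% higher and 18.7% lower. Among the 7697 tested genes with a mean level inside the range of the members, 44.5% were called. The median log2 fold change of the members, NETs over control, was -0.053, and that of all tested genes was -0.0039. For the tested genes inside the members' range of levels it was -0.018. Negative values were held by 55 members and positive values by 22. Of all tested genes 7071 were negative and 6885 positive, and inside the members' range of levels 4099 and 3598. The middle 50% of members lay between -0.15 and 0.014, a narrower band than the -0.19 to 0.19 of all tested genes. Inside the members' range of levels that band was -0.18 to 0.15. A change of less than 1.2-fold was seen for 69 members, 89.6% of those tested, against 61.9% of all tested genes and 69.4% of those inside the members' range of levels. A single member, Mrps6, changed by more than 1.5-fold, while 11.7% of all tested genes were called with at least such a change. Levels in NETs libraries stood wholly above those in control libraries for 8 members and wholly below for 17, and the corresponding shares of all tested genes were 24.4% and 24.5%, or 49% in either direction.

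**Figure D1:**
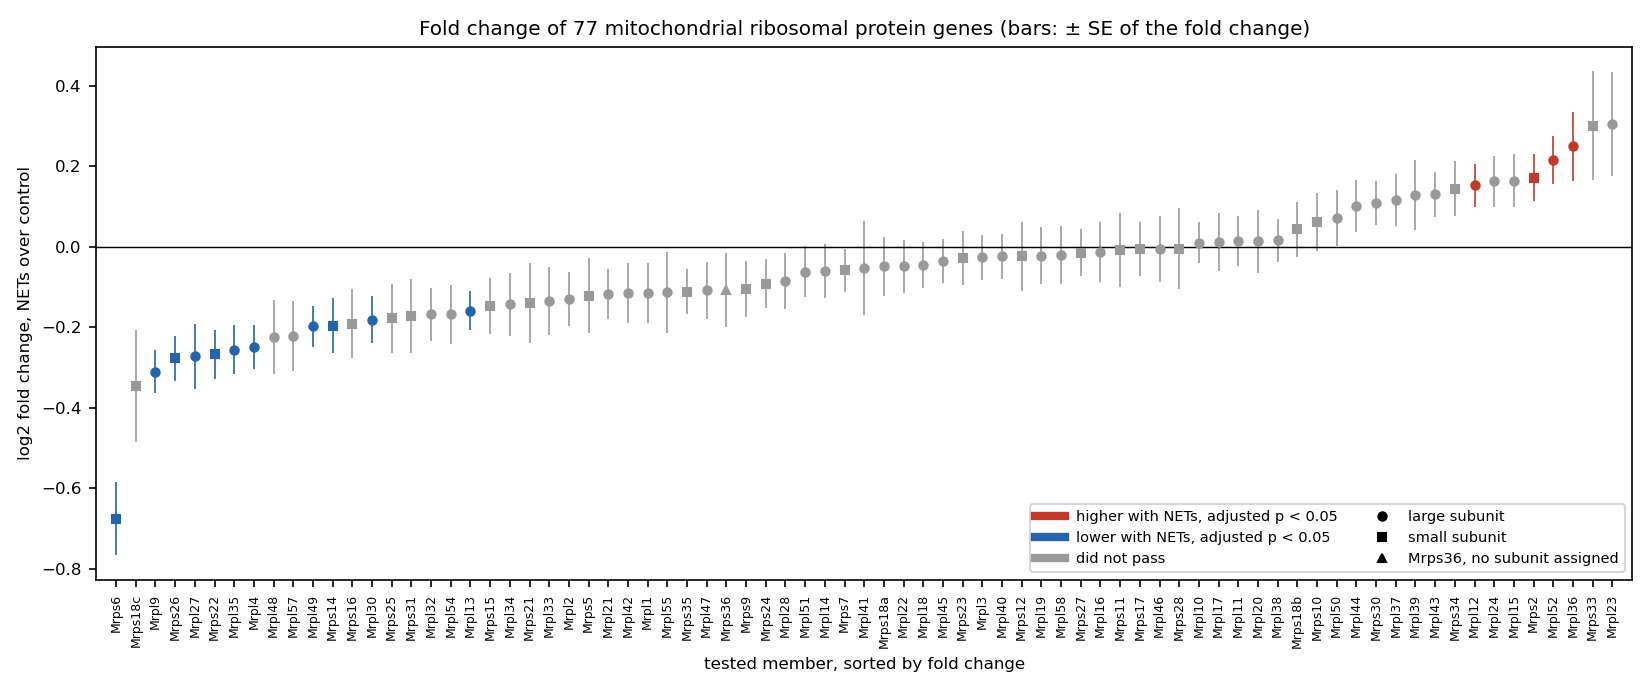
The log2 fold change of each of 77 tested members, NETs over control, is plotted with its standard error and sorted by value, with called members in colour. Mrps6 stands apart at -0.68, and 69 members lie within 1.2-fold of no change.

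Promoter sequence is given for 5 called members because ETS and NRF1 matches stand before genes that rose and genes that fell. Each run is the 120 bases that end just before the RefSeq start of the gene in GRCm38.p6, written 5′ to 3′ along the strand of the gene, and the capitals mark a match to a searched motif on either strand. The ETS motif searched was CCGGAAG and the NRF1 motif GCGCANGCG. Mrpl52 rose, and Mrps26 and Mrps22 fell, and each holds an ETS match. Mrpl12 rose and holds an NRF1 match, and Mrpl9 fell and holds an overlapping pair of NRF1 matches, 1 on each strand. The regions are chr14:54426789-54426908 (plus strand) for Mrpl52, chr2:130563637-130563756 (plus) for Mrps26, chr9:98601680-98601799 (minus) for Mrps22, chr11:120484517-120484636 (plus) for Mrpl12 and chr3:94443216-94443335 (plus) for Mrpl9.
Mrpl52: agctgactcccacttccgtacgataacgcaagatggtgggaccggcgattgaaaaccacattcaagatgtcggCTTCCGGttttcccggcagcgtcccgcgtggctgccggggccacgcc
Mrps26: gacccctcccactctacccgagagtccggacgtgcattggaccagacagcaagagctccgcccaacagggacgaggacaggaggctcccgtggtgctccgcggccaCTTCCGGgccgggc
Mrps22: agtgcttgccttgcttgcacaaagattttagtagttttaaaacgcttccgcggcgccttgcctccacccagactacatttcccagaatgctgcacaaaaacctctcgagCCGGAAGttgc
Mrpl12: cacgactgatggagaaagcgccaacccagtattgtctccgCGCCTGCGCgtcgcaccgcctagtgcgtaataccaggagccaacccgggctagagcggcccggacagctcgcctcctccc
Mrpl9: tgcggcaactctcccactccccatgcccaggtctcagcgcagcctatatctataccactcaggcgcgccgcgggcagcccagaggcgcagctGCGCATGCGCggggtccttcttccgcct
A match is a description of letters and not evidence of binding.

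Over the full window of 300 bases, from 250 before to 50 after the start, 68 tested members had a RefSeq sequence and 43 of them (63.2%) held at least 1 of the 4 motifs searched, against 41.5% of 10041 tested genes with a sequence. The ETS motif was found in 25 members (36.8%) and in 20.4% of tested genes. The NRF1 motif was found in 16 members (23.5%) and in 15.2% of tested genes. The YY1 motif AAGATGGCG was found in 8 members (11.8%) and in 3.61% of tested genes, and the E-box CACGTG in 5 members (7.35%) and in 11.6%. Both strands were searched, and matches of different motifs shared bases in 0 member promoters. Where a gene had more than 1 RefSeq start, a match in any of its windows counted. ETS matches stood in 1 of 4 members that rose, 3 of 9 that fell and 21 of 55 that did not pass. NRF1 matches stood in 1 of 4, 3 of 9 and 12 of 55 of these members. YY1 matches stood in 1 of 4, 1 of 9 and 6 of 55, and E-box matches in 1 of 4, 0 of 9 and 4 of 55.

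Mrps6 encodes a small-subunit protein of the bacterial bS6 family. It had 14.0, 15.2 and 17.4 CPM in NETs libraries and 22.7, 24.6 and 27.4 CPM in control libraries. The highest NETs library lay well below the lowest control library. The mean was 15.5 ± 1.69 CPM in NETs cells and 24.9 ± 2.39 CPM in control cells (SD, n = 3 each), a log2 fold change of -0.68 ± 0.0911 (SE) or 1.60-fold lower (edgeR adjusted p = 1.68e-05). In the coordinates of the count table, which do not match the named build mm10, Mrps6 lies on chromosome 16 from 91855158 to 91909115 on the plus strand. There it shares 159 exon bases, 10.4% of its exon length, with Slc5a3, the myo-inositol transporter gene, on the same strand. Slc5a3 itself had 24.9, 22.1 and 22.0 CPM in NETs libraries and 43.6, 43.4 and 39.1 CPM in control libraries, 1.83-fold lower (log2 fold change -0.87, edgeR adjusted p = 3.19e-08). How reads in shared exons were assigned is not stated, and the part of Slc5a3 in the value of Mrps6 was not tested.

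Beyond Mrps6, 3 small-subunit genes fell. Mrps26, which encodes a protein found in mitochondria alone, had 43.8, 42.5 and 45.4 CPM in NETs libraries and 51.2, 55.4 and 53.2 CPM in control libraries. Mrps22, another mitochondria-specific subunit that in humans is a disease gene of mitochondrial translation, had 40.1, 40.4 and 40.1 CPM in NETs libraries and 46.2, 46.5 and 52.4 CPM in control libraries. Neither gene had a NETs library as high as any control library. Mrps26 fell by 0.28 on the log2 scale (edgeR adjusted p = 0.000836) and Mrps22 by 0.27 (adjusted p = 0.00207). Mrps14, of the universal uS14 family in the head of the subunit, had 38.8, 35.6 and 34.1 CPM in NETs libraries and 41.1, 44.6 and 38.5 CPM in control libraries, so the groups overlapped. Its log2 fold change was -0.20 (adjusted p = 0.0316), and the call ended without NETs replicate 2 (adjusted p = 0.0772), NETs replicate 3 (0.158), control replicate 1 (0.0752) or control replicate 2 (0.133), within a range of 0.00811 to 0.158 over its 15 alternative fits.

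In the large subunit 7 genes fell. Mrpl9, of the bacterial bL9 family, had 56.7, 59.9 and 55.7 CPM in NETs libraries and 71.7, 73.1 and 68.7 CPM in control libraries. Mrpl4, whose bacterial relative uL4 lines the exit tunnel for the growing chain, had 34.6, 35.5 and 34.6 CPM in NETs libraries and 42.2, 41.4 and 40.8 CPM in control libraries. Mrpl35, of the bL35 family, had 30.4, 32.5 and 33.1 CPM in NETs libraries and 37.9, 39.5 and 37.3 CPM in control libraries. In all 3 genes every NETs library lay below every control library, by more than the spread within either group. The log2 fold changes were -0.31 for Mrpl9 (edgeR adjusted p = 0.000188), -0.25 for Mrpl4 (0.00185) and -0.26 for Mrpl35 (0.00285). Mrpl49, a mitochondria-specific protein, had 57.6, 58.3 and 56.7 CPM in NETs libraries and 64.8, 65.6 and 67.4 CPM in control libraries. Mrpl13, of the uL13 family, had 102, 103 and 107 CPM in NETs libraries and 113, 116 and 119 CPM in control libraries. Both were again separated between the groups, with log2 fold changes of -0.20 (adjusted p = 0.00534) and -0.16 (adjusted p = 0.0142).

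The other two large-subunit genes that fell were less firm. Mrpl27 encodes the relative of bacterial bL27, a protein next to the peptidyl transferase centre. It had 18.9, 15.9 and 16.3 CPM in NETs libraries and 20.6, 21.1 and 20.2 CPM in control libraries, with the first NETs library nearest to the control values. Its log2 fold change was -0.27 (edgeR adjusted p = 0.0121), and without NETs replicate 2 or NETs replicate 3 the adjusted p was 0.0522 and 0.0690, in a range of 0.00226 to 0.0690 over 15 alternative fits. Mrpl30, of the uL30 family, had 49.1, 44.7 and 44.4 CPM in NETs libraries and 51.4, 54.1 and 51.4 CPM in control libraries. Here too the first NETs library was the highest of its group, still below each control library. Its log2 fold change was -0.18 (adjusted p = 0.0205), and the adjusted p was 0.0651 without NETs replicate 2, 0.103 without NETs replicate 3 and 0.0658 without control replicate 2, in a range of 0.00363 to 0.103. The 8 other members that fell, in both subunits, kept their call in each of the 15 alternative fits. The highest adjusted p over those fits ran from 0.000180 for Mrps6 to 0.0324 for Mrpl49 and 0.0488 for Mrpl13, just below the threshold.

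Rises were found for 3 large-subunit genes and 1 small-subunit gene, and each was smaller than 1.2-fold. Mrpl52, a mitochondria-specific protein, had 32.5, 31.4 and 30.8 CPM in NETs libraries and 27.3, 27.1 and 27.1 CPM in control libraries. Mrpl36, of the small zinc-binding bL36 family, had 22.6, 19.5 and 19.9 CPM in NETs libraries and 18.0, 18.7 and 15.5 CPM in control libraries. The groups were wide apart for Mrpl52 relative to their spread and nearly touched for Mrpl36. Mrpl52 was 1.16-fold higher (log2 fold change 0.22, edgeR adjusted p = 0.00886) and Mrpl36 was 1.19-fold higher (0.25, adjusted p = 0.0303). Mrpl12, the stalk protein that recruits translation factors and that binds the mitochondrial RNA polymerase, had 85.6, 85.7 and 80.0 CPM in NETs libraries and 73.0, 78.4 and 74.6 CPM in control libraries. Mrps2, of the uS2 family, had 35.3, 35.2 and 34.6 CPM in NETs libraries and 31.2, 30.7 and 31.3 CPM in control libraries. The libraries of the groups did not overlap in either gene. Mrpl12 was 1.11-fold higher (log2 fold change 0.15, adjusted p = 0.0300) and Mrps2 was 1.13-fold higher (0.17, adjusted p = 0.0248).

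Of the 4 rises 0 kept their call in each of the 15 alternative fits. Mrpl52 kept its call in 14 of 15 alternative fits and lost it under scaling to library size alone (adjusted p = 0.0647, in a range of 0.00682 to 0.0647). Under that scaling 0 members were called higher by edgeR, and without control replicate 1 the count was 1, against 4 with all libraries and TMM scaling. Over all genes and in either direction those fits called 5869 and 4348, against 5430. Mrpl36 lost its call without NETs replicate 1 (adjusted p = 0.145), NETs replicate 3 (0.0587), control replicate 1 (0.0523) or control replicate 3 (0.126), in a range of 0.0216 to 0.145 over its alternatives. Mrpl12 lost it without NETs replicate 1 (0.0931), NETs replicate 2 (0.0827), control replicate 1 (0.135) or control replicate 3 (0.0626), and also without the low-count filter (0.0751) and with upper-quartile factors (0.0608), in a range of 0.0228 to 0.225. Mrps2 lost it without NETs replicate 1 (0.0670), NETs replicate 2 (0.0546), NETs replicate 3 (0.0638), control replicate 1 (0.0715) or control replicate 2 (0.0571), and also without the low-count filter (0.0911), in a range of 0.0208 to 0.164. The sign of all 4 stayed positive in each alternative fit.

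**Figure D2:**
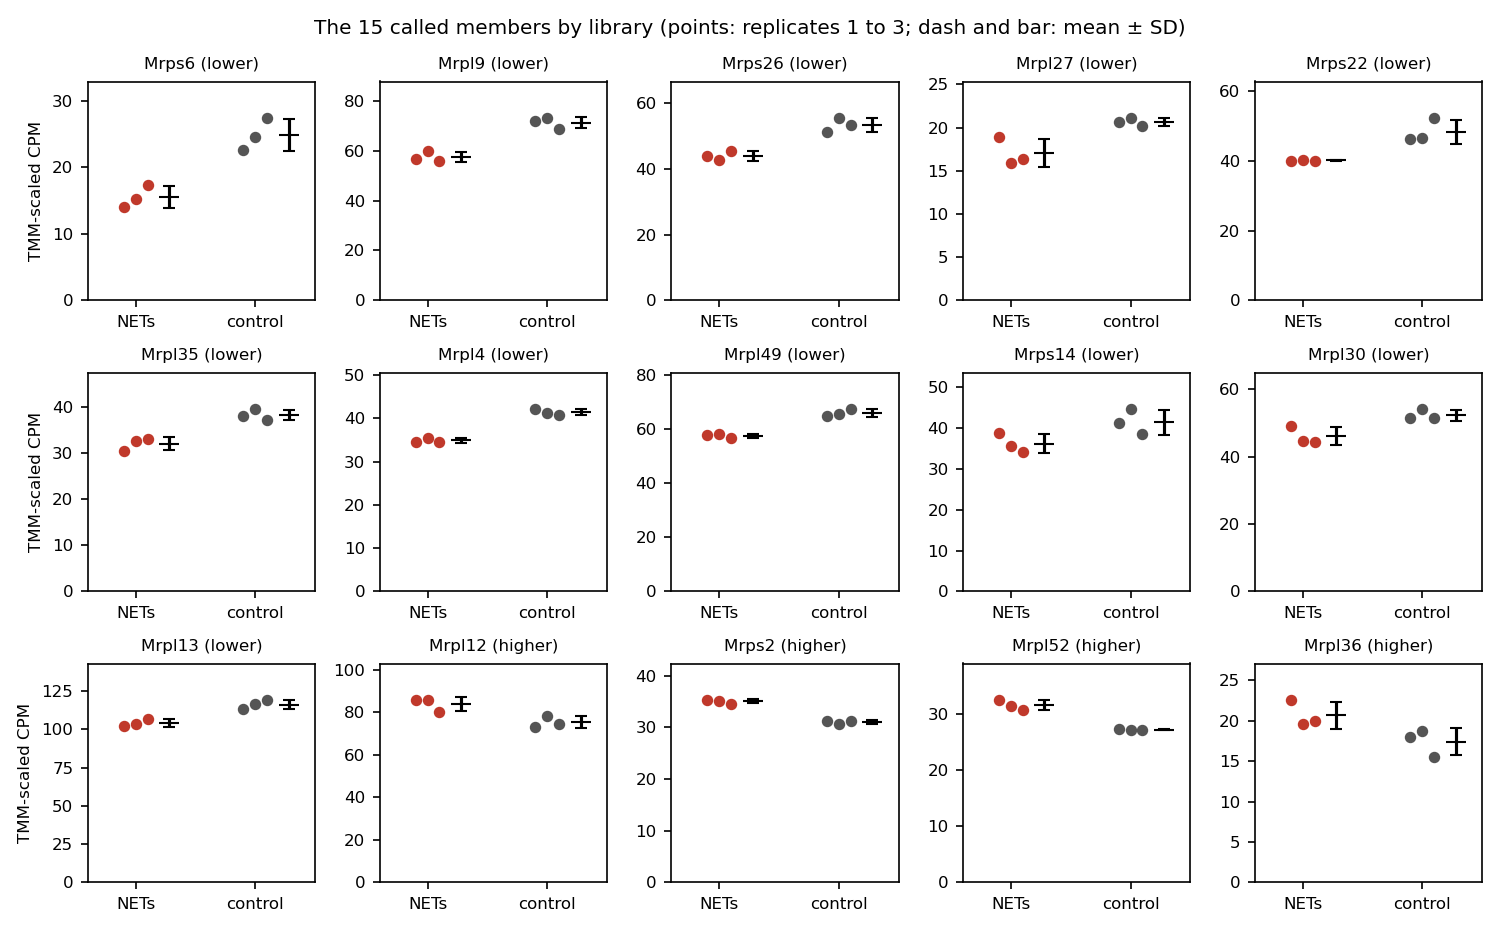
Each panel gives the TMM-scaled CPM of 1 of the 15 called members in the 3 NETs and the 3 control libraries, with the mean and SD beside the points. The libraries of the groups overlap in Mrps14 alone.

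In the large subunit 3 of 50 tested members rose and 7 fell, the median log2 fold change was -0.047, and 33 values were negative and 17 positive. In the small subunit 1 of 26 rose and 4 fell, the median was -0.098, and 21 values were negative and 5 positive. Summed levels of the small-subunit genes were 746, 796 and 770 CPM in NETs libraries and 804, 826 and 852 CPM in control libraries, a ratio of 0.931. Those of the large-subunit genes were 1912, 1947 and 1923 CPM in NETs libraries and 1944, 2012 and 1982 CPM in control libraries, a ratio of 0.974. The small-subunit sums did not overlap between the groups, but the nearest libraries, at 796 and 804 CPM, lay close beside the spread within either group. Mrps6 alone had 15.2 CPM in that NETs library and 22.7 CPM in that control library. The large-subunit sums overlapped narrowly, with 1947 CPM in the highest NETs library and 1944 CPM in the lowest control library. The ratio of the large-subunit to the small-subunit sum was 2.56, 2.45 and 2.50 in NETs libraries and 2.42, 2.44 and 2.33 in control libraries. The gap between the lowest NETs ratio and the highest control ratio was small beside the spread within either group. All 78 members together summed to 2711 ± 43.5 CPM in NETs cells and 2821 ± 51.1 CPM in control cells (SD, n = 3 each), a ratio of 0.961.

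Members of bacterial descent and members found in mitochondria alone were both among those called. Of 31 large-subunit members from bacterial families 2 rose and 6 fell (25.8% called, median log2 fold change -0.060). Of 19 tested that are mitochondria-specific 1 rose and 1 fell (10.5% called, median -0.019). In the small subunit 1 of 17 from bacterial families rose and 2 fell (17.6% called, median -0.092). There 0 of 9 mitochondria-specific members rose and 2 fell (22.2% called, median -0.11). Among all tested genes 38.9% were called. Whether these groups differ was not tested. Members whose exons overlap another gene gave 1 rise and 6 falls of 32 tested (21.9% called). Those without such overlap gave 3 rises and 5 falls of 45 (17.8% called). Exons of 28 members overlap a gene on the opposite strand, and since the counting may or may not have used strand, reads of such pairs may be mixed.

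Several members with a defined place in the work of the ribosome did not pass the test. Mrps12, of the uS12 family at the decoding centre, had 20.3, 16.5 and 19.2 CPM in NETs libraries and 19.2, 20.2 and 17.8 CPM in control libraries (log2 fold change -0.023, edgeR adjusted p = 0.860). Mrpl58, a peptidyl-tRNA hydrolase of the large subunit that can release stalled chains, had 20.3, 20.8 and 20.5 CPM in NETs libraries and 21.0, 22.0 and 19.5 CPM in control libraries (log2 fold change -0.020, adjusted p = 0.861). The groups overlapped in both genes, and the log2 fold changes had standard errors of 0.0856 and 0.0718. Some members with wider changes also missed the threshold. Mrpl23 had a log2 fold change of 0.31 (adjusted p = 0.0711) and Mrps33 one of 0.30 (adjusted p = 0.0913), and both were at low counts. Each passed once NETs replicate 2 was left out, with adjusted p = 0.0322 for Mrpl23 and 0.0485 for Mrps33. Mrps18c, singled out after its values were seen, had 9.84, 6.11 and 7.25 CPM in NETs libraries and 9.68, 10.8 and 9.31 CPM in control libraries (log2 fold change -0.35, adjusted p = 0.0642).

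Per kilobase of exon, the level of the 77 tested members spanned 1.15 to 51.9 CPM with a median of 11.9. Mrpl12 was the highest, with 54.7 CPM per kb in NETs cells and 49.2 in control cells. Mrpl10, the protein that anchors the Mrpl12 stalk, followed with 47.0 CPM per kb in NETs cells and 46.6 in control cells, and it did not pass the test (log2 fold change 0.011, edgeR adjusted p = 0.895). Next came Mrpl2, whose bacterial relative uL2 lies near the peptidyl transferase centre, and Mrpl43, a mitochondria-specific protein. Mrpl2 had 37.9 CPM per kb in NETs cells and 41.4 in control cells (log2 fold change -0.13, adjusted p = 0.146). Mrpl43 had 40.1 CPM per kb in NETs cells and 36.7 in control cells (log2 fold change 0.13, adjusted p = 0.0749), and it passed without control replicate 2 (adjusted p = 0.0463). The order of Mrpl2 and Mrpl43 thus differed between the groups, and neither gene passed the test.

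The lowest tested members per kilobase were Mrpl23, Mrpl48, Mrps10 and Mrps33. Mrpl23 had 1.27 CPM per kb in NETs cells and 1.04 in control cells. Mrpl48 had 1.32 CPM per kb in NETs cells and 1.54 in control cells (log2 fold change -0.22, edgeR adjusted p = 0.0656). Mrps10, of the uS10 family, had 2.59 CPM per kb in NETs cells and 2.48 in control cells, and Mrps33 had 3.06 and 2.49. Exon length here is the summed length of all annotated exons, which is 8152 bases for Mrpl48 and 4883 for Mrpl23 against 1532 for Mrpl12, so a gene with long annotated exons that these cells do not use is set low. Mrpl53 was the 1 member that failed the low-count filter, with 0 or 1 count in each library. Other genes overlap 88.0% of its annotated exon bases, Gm42688 on the same strand with 51 to 58 counts in NETs libraries and 69 to 123 in control libraries, and Ccdc142os on the opposite strand. Whether reads of Mrpl53 were lost to these genes was not tested.

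**Figure D3:**
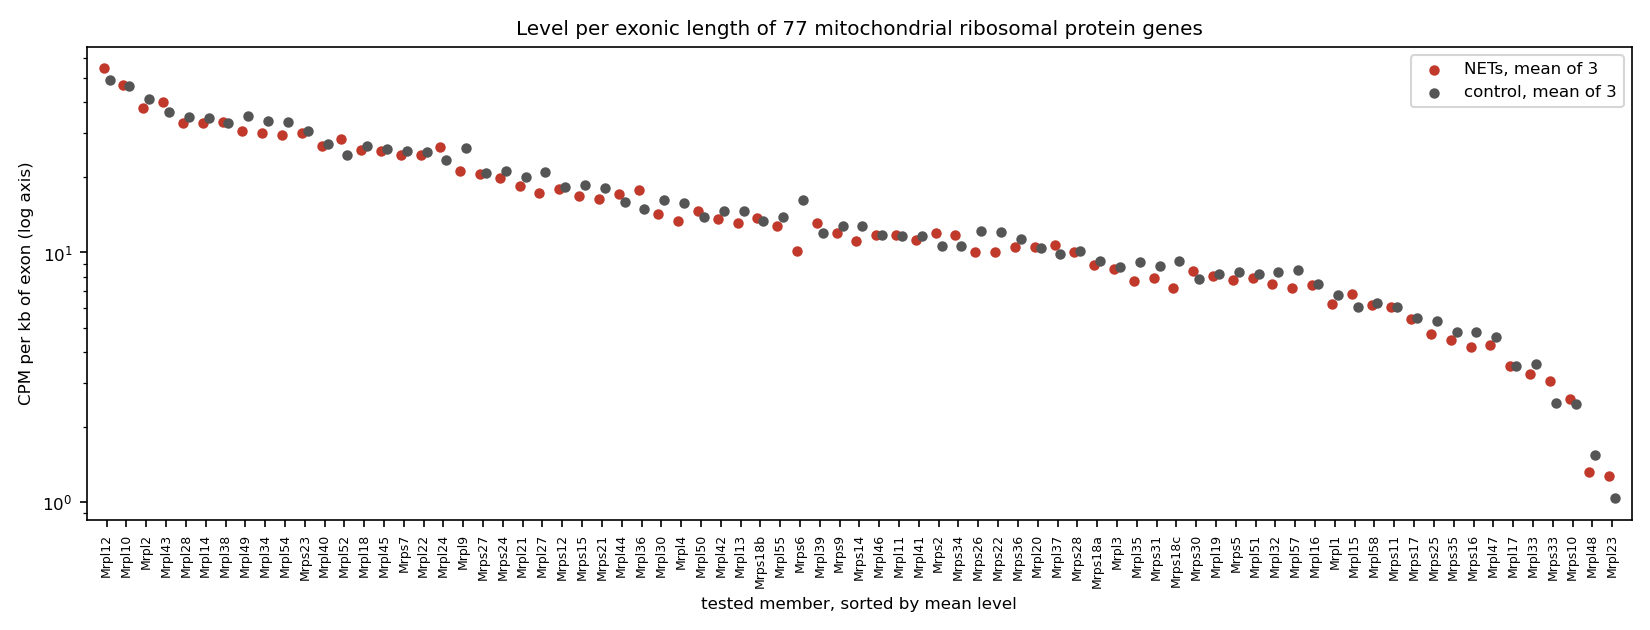
Mean level per kilobase of exon, on a log axis, of the 77 tested members in NETs and control cells, sorted by the mean over both groups. Levels run from 51.9 CPM per kb for Mrpl12 to 1.15 for Mrpl23, and Mrps6 shows the widest gap on this axis, with 10.1 CPM per kb in NETs cells and 16.2 in control cells.

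Many members lie head to head with another gene. By the positions in the deposited file, 33 of 77 tested members (42.9%) had a tested gene on the opposite strand that starts within 1000 bases of their own start, against 20.4% of all tested genes. Of the 33 neighbours 6 rose and 7 fell, which is 39.4% and near the 38.9% of all tested genes. Among the called members 5 had such a neighbour. Mitd1, which acts in the last step of cell division and starts 66 bases from Mrpl30, had 34.4 ± 1.15 CPM in NETs cells and 45.4 ± 2.29 CPM in control cells (SD, n = 3 each; log2 fold change -0.40, edgeR adjusted p = 4.28e-05), and both genes fell. Mtbp, 340 bases from Mrpl13, also fell with its neighbour (-0.27, adjusted p = 0.0302). Eme1, a DNA repair nuclease subunit 197 bases from Mrpl27, rose (0.23, adjusted p = 0.0323) where Mrpl27 fell. Ndufs6, a complex I subunit 29 bases from Mrpl36, did not pass (0.10, adjusted p = 0.228), nor did Fau, which encodes a protein of the cytosolic ribosome and starts 59 bases from Mrpl49 (0.044, adjusted p = 0.612). Mtbp, Eme1 and Ndufs6 also overlap exons of their member on the opposite strand. Mrpl46 and Mrps11 are each other's neighbour at 412 bases, with log2 fold changes of -0.0050 and -0.0083.

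The other nuclear and mitochondrial genes of mitochondrial gene expression were described by 7 lists, with 108 tested genes, of which 3 rose and 23 fell (24.1% called, against 38.9% of all tested genes). With control replicate 1 left out 13 fell and with NETs replicate 3 left out 15 fell, and in both cases 1 rose. Over all genes those fits called 4348 and 4321, against 5430 with all libraries. The 5 mitoribosomal proteins with other symbols, such as Dap3 and Ptcd3, had no gene that passed (median log2 fold change -0.0068), though without NETs replicate 1 there was 1 that rose. Of 18 translation factors 0 rose and 4 fell (22.2% called), with a median of -0.11. The leading pair was Gfm2, which recycles the ribosome after termination, with 30.4 ± 1.61 CPM in NETs cells and 35.7 ± 1.09 CPM in control cells (SD, n = 3 each; log2 fold change -0.23, edgeR adjusted p = 0.00748), and Metap1d, a methionine aminopeptidase of mitochondria, with a log2 fold change of -0.27 (adjusted p = 0.0111). The count that fell was 2 without NETs replicate 1 or without control replicate 1, and without NETs replicate 1 there was 1 that rose. Over all genes the fit without NETs replicate 1 called 5038 and that without control replicate 1 called 4348.

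Of 19 tested genes for charging mitochondrial transfer RNAs 1 rose and 3 fell (21.1% called, against 38.9% of all tested genes). The median log2 fold change was -0.053. The rise was that of Aars2, the mitochondrial alanyl-tRNA synthetase. It had 21.2, 21.9 and 19.7 CPM in NETs libraries and 11.3, 11.4 and 12.6 CPM in control libraries, 1.78-fold higher (log2 fold change 0.83, edgeR adjusted p = 4.12e-07). No other gene of the 7 lists and no member rose as far. Gatc, a subunit of the amidotransferase that completes mitochondrial glutaminyl-tRNA, had 22.4, 24.5 and 24.3 CPM in NETs libraries and 32.4, 30.7 and 33.1 CPM in control libraries (-0.44, adjusted p = 4.74e-05). Iars2, the isoleucyl-tRNA synthetase, had a log2 fold change of -0.17 (adjusted p = 0.00931, and 0.0579 without control replicate 1). The count that fell was 1 without control replicate 1, a fit that called 4348 genes in all against 5430 with all libraries.

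Of 26 assembly factors of the mitochondrial ribosome 0 rose and 6 fell (23.1% called), and the median log2 fold change was -0.070. Among all tested genes 38.9% were called, 20.2% higher and 18.7% lower. Mrm2, which methylates the large ribosomal RNA, had 9.39, 9.46 and 10.1 CPM in NETs libraries and 13.6, 12.6 and 12.5 CPM in control libraries (-0.42, edgeR adjusted p = 0.00123). Rpusd4, a pseudouridine synthase, had a log2 fold change of -0.27 (adjusted p = 0.00203). The count that fell was 3 without NETs replicate 3, control replicate 1 or control replicate 2. Over all genes those fits called 4321, 4348 and 4917, against 5430 with all libraries. Of 21 genes for transcription and processing of mitochondrial RNA 0 rose and 6 fell (28.6% called), with a median of -0.030. Fastkd1 had a log2 fold change of -0.39 (adjusted p = 0.000961) and Ptcd2 one of -0.27 (adjusted p = 0.00132), and Ptcd2 starts 81 bases from Mrps27, which did not pass (-0.014).

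Of 10 regulators linked to mitochondrial biogenesis 2 rose and 3 fell, beside 20.2% higher and 18.7% lower among all tested genes, and the median log2 fold change was 0.0094. Yy1, a zinc-finger factor, had 200, 220 and 218 CPM in NETs libraries and 175, 190 and 198 CPM in control libraries (0.18, edgeR adjusted p = 0.0162). Pprc1, a coactivator of the PGC-1 family, had a log2 fold change of 0.17 (adjusted p = 0.0182). Yy1 lost its call without NETs replicate 2 (0.0630), NETs replicate 3 (0.0870) or control replicate 1 (0.116), and Pprc1 without NETs replicate 1 (0.0952), NETs replicate 3 (0.0552) or control replicate 1 (0.104). Gabpb2, a subunit of the GABP complex, had 105, 104 and 105 CPM in NETs libraries and 151, 141 and 148 CPM in control libraries (-0.48, adjusted p = 3.72e-07). Ppargc1a, which encodes the coactivator PGC-1alpha, fell at very low counts, with 6, 4 and 2 counts in NETs libraries and 34, 18 and 18 counts in control libraries (adjusted p = 0.00557). The third gene that fell was Esrra (-0.19, adjusted p = 0.0277), named after its values were seen. Nrf1, Gabpa and Myc did not pass, with log2 fold changes of 0.039, 0.064 and 0.020.

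**Figure D4:**
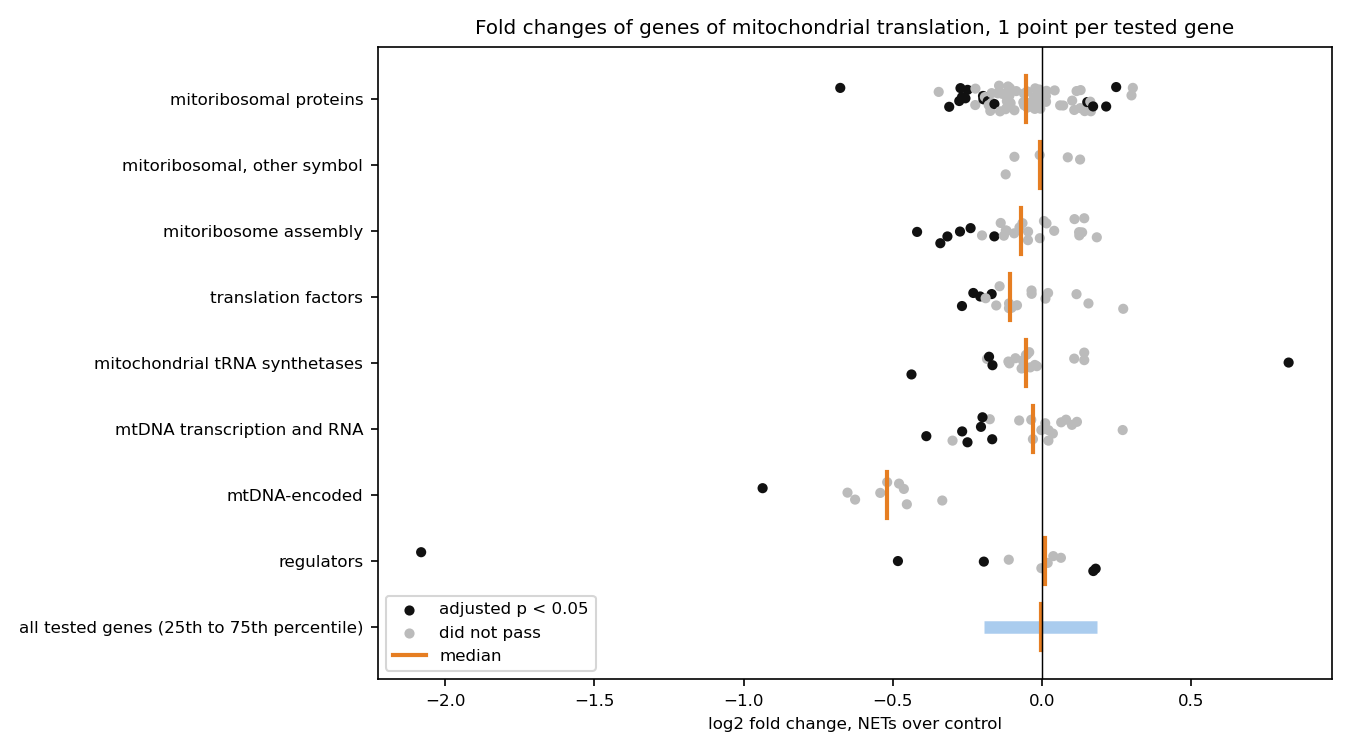
Log2 fold changes, NETs over control, of the tested members and of the genes of the 7 other lists, 1 point per gene, with called genes in black, the others in grey and medians as lines, above the middle 50% of all tested genes. Medians of the nuclear-encoded lists lie between -0.11 and 0.0094, and Aars2 stands highest at 0.83.

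The genes of mitochondrial DNA, whose transcripts the mitochondrial ribosome carries and translates, varied far more between libraries than the members did. The protein-coding genes summed to 1050, 2446 and 1923 CPM in NETs libraries and 2548, 2910 and 2588 CPM in control libraries. Every NETs library was below every control library, and NETs replicate 1 stood far below the others. The ratio of the means was 0.673 with all libraries and 0.814 without NETs replicate 1. Of 15 genes 9 were tested, and 1 passed (11.1%, against 38.9% of all tested genes). This was mt-Nd6, with 3.30, 5.98 and 2.89 CPM in NETs libraries and 7.65, 7.08 and 7.81 CPM in control libraries. Its log2 fold change was -0.94 (edgeR adjusted p = 0.00452). The gene mt-Nd6 lies on the strand opposite to the other protein-coding genes, so the strand setting bears on its count. The median of the 9 was -0.52, 4 passed as lower without NETs replicate 1 and 3 without NETs replicate 2, and limma-voom called 7. Over all genes those fits called 5038, 4908 and 5420, against 5430 in the main fit. The other 6 (mt-Nd3, mt-Nd4l, mt-Co2, mt-Co3, mt-Atp6 and mt-Atp8) were listed at 0 or a few counts in each library and are not read as a measure of their RNA. The ribosomal RNAs mt-Rnr1 and mt-Rnr2, seen in libraries of messenger RNA, summed to 86.4, 217 and 128 CPM in NETs libraries and 188, 157 and 212 CPM in control libraries, and the groups overlapped.

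**Figure D5:**
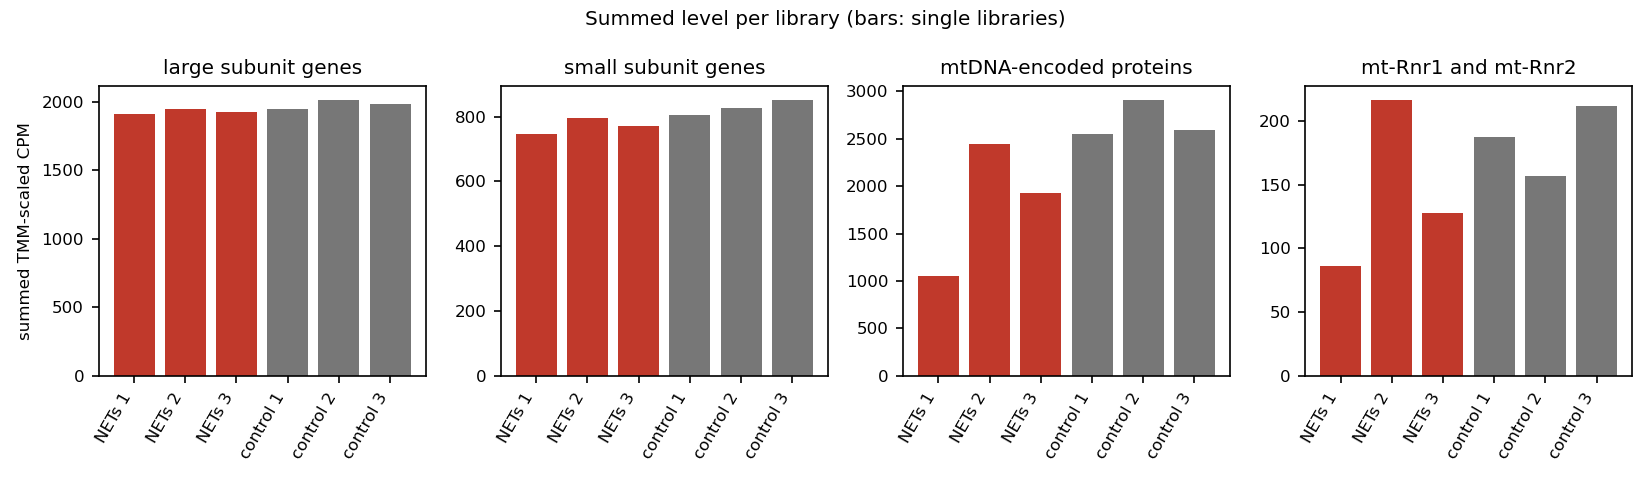
Summed TMM-scaled CPM per library, NETs and control, of the large-subunit genes, the small-subunit genes, the protein-coding genes of mitochondrial DNA and mt-Rnr1 with mt-Rnr2, 1 bar per library on axes from 0. The ratio of NETs to control means is 0.974 for the large and 0.931 for the small subunit. The small-subunit sums do not overlap between the groups, by a gap small beside the spread within either group. The sums of the protein-coding genes of mitochondrial DNA spread from 1050 to 2446 CPM within the NETs group.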

How the data were processed

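RNA of 410.4 cells was sequenced in 3 NETs and 3 control libraries. The authors deposited whole-number counts per gene symbol, with exon positions and lengths (another column, in bases). STAR 2.7.10a, Subread 2.0.3 with featureCounts, and the genome build mm10 are named per the submitters' processing notes. In the deposited positions 3 of 78 members overlap their GRCm38 position, so the file follows another build. Per the labels' protocols the library kit was stranded, while strand setting, annotation and the handling of shared exons are not given in the sources used. Between 74.8% and 78.4% of low counts were even, so mates appear to have been counted singly and counts stand for reads.

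Counts were scaled by TMM, filtered with filterByExpr (minimum count 10) and compared with edgeR 4.0.16 (glmQLFit, robust, and glmQLFTest) in R 4.3.3, with Benjamini-Hochberg adjustment over 13956 genes at 0.05. The common biological coefficient of variation was 0.0620. Standard errors of log2 fold changes were derived as the absolute log2 fold change divided by the square root of the quasi-likelihood F statistic. Libraries held 31119105 to 64431811 counts, and members that were tested 134 to 7512 per library. Alternatives were limma-voom (limma 3.58.1), DESeq2 1.42.0, other scalings and filters, halved counts, a replicate block, and leaving out each library. Figures, promoter searches and overlaps were made with Python 3.11.15, with promoters from RefSeq (GRCm38.p6), found for 69 of 78 members. Members, lists and tests were chosen with earlier results of these data known. Values by library are given for every called member. Mrps14, Mrpl30 and Mrpl13 stand outside the planned 8 largest and 3 most significant called members in each direction. Values are also given for the 4 highest and 4 lowest per kilobase, members that fail the filter, Mrpl12, Mrps12 and Mrpl58. Up to 2 genes in each direction of a list were added.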

Additional observations from a re-analysis of the deposited data

How the results depend on the processing

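The total of genes called lay within 1.5 times its value in each of the 15 alternative fits. Of the 15 called members 8 kept their call in all of them, each lower in NETs cells: Mrps6, Mrpl9, Mrps26, Mrps22, Mrpl35, Mrpl4, Mrpl49 and Mrpl13. Mrpl13 kept it narrowly, with a highest adjusted p of 0.0488 over these fits. Scaling to library size alone shifted the median of all genes by -0.068 (log2) and with it the members. It gave 0 members higher and 26 lower, against 4 and 11 with TMM. Of 13956 tested genes it called 5869 in either direction, against 5430 with TMM. Its medians were -0.12 for the members, -0.12 for the large and -0.17 for the small subunit, and of the other mitochondrial genes 1 rose and 35 fell. Measured against the median of all genes, the median of the members was -0.049 with TMM and -0.047 with library size alone. Upper-quartile factors gave a large-subunit median of -0.070. Without the low-count filter 2 members were higher. Among members with no overlapping exons 5 were lower. Over all genes, fits without 1 library called 4321 to 5181, against 5430 with all libraries. Leaving out 1 library gave 1 to 5 members higher and 10 to 13 lower, medians of -0.076 to -0.040 for the members, -0.060 to -0.029 for the large subunit and -0.12 to -0.054 for the small subunit, and 1 to 4 other mitochondrial genes higher and 13 to 22 lower. Why the calls differ between these settings was not tested.

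Members near no change turned in sign. Mrpl10, at 0.011, was -0.058 with library size alone, -0.0020 without the filter, -0.013 with upper-quartile factors and -0.016 to 0.033 over fits without 1 library. Mrps10, at 0.062, was -0.0071 with library size alone. Over fits without 1 library Mrps12 ranged from -0.090 to 0.053 and Mrpl58 from -0.065 to 0.018. Same-numbered libraries had correlations of 0.118, -0.0593 and 0.0564 in their deviations from the group means. Differently numbered NETs and control libraries had -0.172 to 0.108. With 3 libraries per group these values cannot decide whether the numbers mark pairs. With the number as a replicate block 5 members were higher and 11 lower, with 5682 genes called in all against 5430. Between 134 and 7512 counts stood behind each tested member. The median standard error on the log2 scale was 0.0684 for the members and 0.0738 for all tested genes. It was 0.0676 for tested genes inside the members' range of levels. Changes smaller than their standard error could not be called in any of these groups. The part of precision in the number of members called was not tested.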
